A study of Mus musculus with 15 samples.

Results

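The question addressed here was whether the effect of an agonist CD40 antibody on the tumor transcriptome depended on MEK inhibition, which was asked of all 15 arrays of the series at once. For each gene the interaction was the antibody difference under the inhibitor minus the antibody difference without it, (MEKi+CD40 - MEKi) - (CD40 - Ctrl), on the log2 scale. A value of 0 means that both differences were equal, so that the treatments multiplied on the linear scale (additivity on the log2 scale). A positive value means that the combination lay above the level that the single treatments would give if they were additive, and a negative value that it lay below. The contrast was fitted to 45037 probe sets and read out for 18193 genes, each by its brightest probe set that names 1 gene.

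The tumors were grown subcutaneously in the flank of C57BL/6-Ly5.1 mice of 6 to 12 weeks from PDA30364, a single line derived from a genetically engineered mouse model of pancreatic ductal adenocarcinoma. Control tumors (Ctrl, n = 4) received vehicle and control IgG, CD40 tumors (n = 4) vehicle and the agonist CD40 antibody, MEKi tumors (n = 3) GDC-0623 and control IgG, and combination tumors (MEKi+CD40, n = 4) both drugs. GDC-0623, an inhibitor of the kinases MEK1 and MEK2, was given daily at 30 mg/kg for about 2 weeks. Antibody injections followed on days 3, 5 and 7 of treatment, with a last dose on the eve of tumor collection (day 26 after inoculation), and RNA of whole tumor pieces was hybridised, so that the arrays hold tumor cells, infiltrate, stroma and any neighbouring tissue together.

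MEK1 and MEK2 phosphorylate ERK, which carries growth signals to the nucleus and drives its own feedback inhibitors, EGFR ligands and cell cycle genes. CD40 is a receptor of the TNF receptor family on dendritic cells, macrophages and B cells, whose engagement activates NF-kB and prepares antigen presenting cells to prime T cells.

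The 18S signal of the arrays was 13.24 ± 0.11 (SD, n = 4) in combination and 13.28 ± 0.10 (SD, n = 3) in MEKi tumors (two-sided exact permutation test, p = 0.743). The smallest value these group sizes allow is 0.0571, so this test could not have passed 0.05. In Ctrl the signal was 12.86 ± 0.14 (SD, n = 4) and in CD40 tumors 12.99 ± 0.10 (SD, n = 4). Krt19, an epithelial keratin of the tumor line, lay between group means of 13.1 and 13.42 log2 units. Skeletal muscle genes had a mean level of 7.04 ± 1.17 in MEKi and 7.08 ± 0.46 in combination tumors against 5.48 ± 0.59 in Ctrl and 5.11 ± 0.45 in CD40 tumors, with the first MEKi array at 8.39 and the other two at 6.35 and 6.38. The skin keratinocyte list stood at 6.39 ± 0.50 in MEKi tumors and 5.11 ± 0.06 in combination tumors. All 3 MEKi tumors carried tumor numbers from 10000 up and all 4 combination tumors numbers below 10000, while Ctrl held 3 and 1 and CD40 2 and 2 tumors below and from 10000. The labels do not say what the number stands for. What goes with it and the difference between MEKi and combination tumors cannot be told apart. The fit was therefore repeated with a covariate that only marks whether the number was below or from 10000, called the tumor number below. Its coefficient rests on the Ctrl and CD40 arrays alone. Where a named gene stayed called in that fit its text says so, and the other named calls did not pass in it.

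Of the 18193 genes, 829 (4.56%) had an interaction at a Benjamini-Hochberg adjusted p under 0.05 in limma, 363 above and 466 below additivity (2.00% and 2.56%). Over probe sets 1441 passed (3.20%). Among all genes the median interaction was -0.001 and the median standard error 0.13. The called genes ranged from an absolute value of 0.29 upward with a median of 0.80, and 83 of those above and 218 of those below reached at least 1, a 2-fold departure from additivity. At the edge of the threshold the last called gene had an adjusted p of 0.0498. In the same fit the antibody difference was called for 18 genes without the inhibitor (0.0989%) and for 2032 with it (11.2%), and these differences share the arrays of the interaction.

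Among the called genes, MEKi tumors most often had the lowest mean above additivity and the highest mean below it. The contrast that called these genes is built from the same group means. It favours genes above additivity with low MEKi or CD40 means or high Ctrl or combination means, and the reverse for genes below. The orders and median differences that follow therefore describe the called genes and are no separate test of which group departed. Of the 363 genes above additivity, 341 had their lowest mean in MEKi tumors, 249 their highest in Ctrl and 102 in combination tumors. Of the 466 genes below, 451 had their highest mean in MEKi tumors, with the lowest in Ctrl for 223, in the combination for 156 and in CD40 tumors for 87. Over all genes the lowest mean fell in MEKi tumors for 38.5%, in the combination for 25.5%, in Ctrl for 21.0% and in CD40 tumors for 14.9%. The highest fell in Ctrl for 31.5%, in MEKi for 28.4% and in combination tumors for 17.0%. As the lowest group of the genes below, the combination (33.5%) and CD40 (18.7%) lay closer to these shares than Ctrl (47.9%). For the genes above additivity the median antibody difference was -0.15 without and 0.53 with the inhibitor, while the inhibitor difference was -0.66 without the antibody and -0.02 with it. For those below, the antibody difference was 0.06 and -0.84, and the inhibitor difference 1.02 and 0.03.

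**Figure D1:**
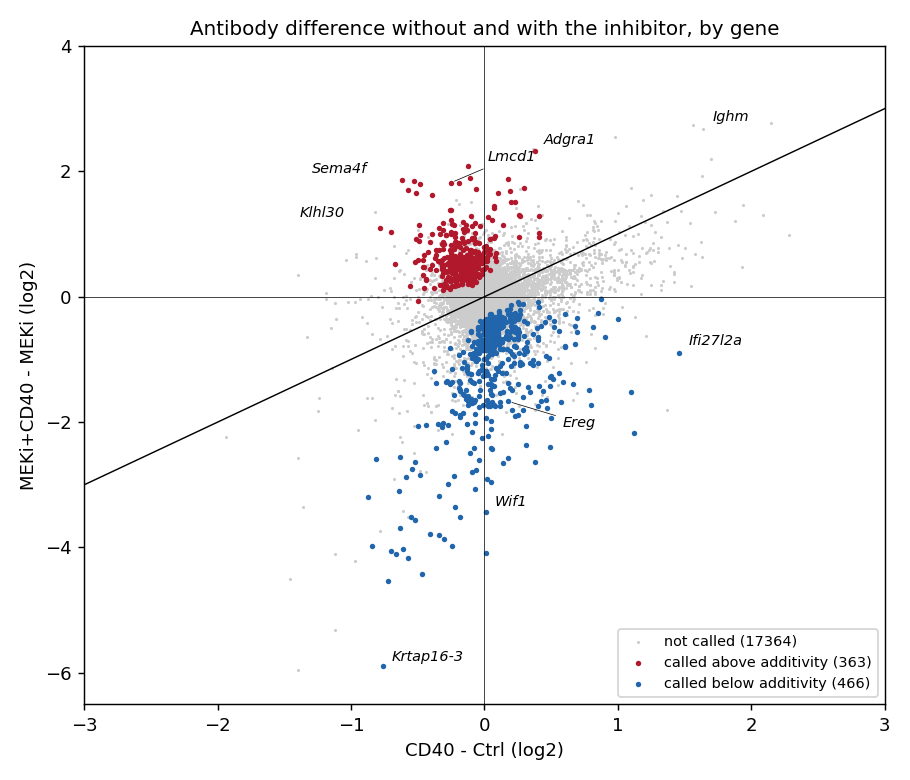
Each point is a gene, with its CD40 - Ctrl difference on the horizontal axis and its MEKi+CD40 - MEKi difference on the vertical axis, both in log2 units, and the diagonal line marks equal differences. The 363 genes called above additivity (red) and the 466 below it (blue) lie on either side of the line and spread along the vertical axis, with Krtap16-3 at -5.89 and Adgra1 at 2.32 there.

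A smaller group of genes above additivity was highest in the combination itself. Lmcd1, which encodes a LIM domain protein that represses GATA6, read 7.28, 6.93, 6.96 and 6.92 log2 units in the 4 Ctrl arrays, 6.71, 6.74, 6.95 and 6.68 in CD40, 7.14, 6.54 and 6.89 in MEKi, and 8.55, 8.85, 8.48 and 8.84 in the combination. Every combination array lay above every other array, and the other 3 groups overlapped one another. Additivity would have put the combination at 6.60 and its mean was 8.68, an interaction of 2.08 ± 0.19 (SE, 95% interval 1.67 to 2.48, limma adjusted p = 0.000104). With the tumor number as a covariate it was 2.07 (adjusted p = 0.00795).

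Lmcd1 was the only one of the 9 promoters matched among the 10 genes farthest above additivity that held the cAMP response element TGACGTCA, which 1.88% of 27025 RefSeq promoters hold on either strand. It is shown because this gene had the smallest p of those above additivity. The window on GRCm38.p6, chr6:112273508-112273807, plus strand, runs from 250 bases before to 50 bases after the annotated start, with the element in capitals.
Lmcd1: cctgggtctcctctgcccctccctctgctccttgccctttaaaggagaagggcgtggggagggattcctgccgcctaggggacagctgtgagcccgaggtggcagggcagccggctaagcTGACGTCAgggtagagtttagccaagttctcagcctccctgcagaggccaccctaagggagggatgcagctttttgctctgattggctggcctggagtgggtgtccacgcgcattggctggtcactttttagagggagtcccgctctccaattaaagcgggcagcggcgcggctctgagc
The match is a description of these letters and not evidence of binding.

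Klhl30, a kelch-like protein gene, showed a different order. Its arrays read 7.03, 7.05, 7.05 and 6.96 in Ctrl, 6.28, 6.25, 6.41 and 6.03 in CD40, 6.46, 6.34 and 5.88 in MEKi, and 7.39, 7.33, 7.01 and 7.58 in the combination. Each single treatment lay below all Ctrl arrays, the antibody by 0.78 ± 0.13 (SE) and the inhibitor by 0.80, and the combination arrays, from 7.01 up, overlapped those of Ctrl. Its interaction was 1.88 ± 0.19 (SE, adjusted p = 0.000345, and 0.0201 with the tumor number).

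Stra6, the receptor that takes up retinol from its carrier protein, read 7.94, 8.02, 7.58 and 8.00 in Ctrl, 8.26, 8.00, 7.33 and 7.49 in CD40, 6.59, 6.03 and 5.93 in MEKi, and 8.37, 8.21, 8.57 and 7.96 in the combination. All MEKi arrays lay below the rest, and the interaction was 2.21 ± 0.30 (SE, adjusted p = 0.00176). Myzap, a junction protein gene, had the same order with group means of 8.41, 7.94, 6.69 and 8.48 and an interaction of 2.26 ± 0.27 (SE, adjusted p = 0.000894). Tfr2, the second transferrin receptor, had means of 7.96, 7.77, 6.51 and 8.32 and an interaction of 2.00 ± 0.33 (SE, adjusted p = 0.0062). With the tumor number the adjusted p was 0.0754 for Stra6, 0.0491 for Myzap and 0.0506 for Tfr2.

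Adgra1, an adhesion G protein-coupled receptor gene chosen after its values were seen, was called for neither drug alone (adjusted p = 0.808 for CD40 - Ctrl and 0.24 for MEKi - Ctrl in limma). It read 5.11, 5.33, 5.51 and 5.46 in Ctrl, 5.45, 6.78, 5.45 and 5.26 in CD40, 5.82, 5.59 and 6.09 in MEKi, and 8.40, 8.04, 7.97 and 8.22 in the combination. The combination arrays lay above all others, with 1 CD40 array standing above the rest of its group. The interaction was 1.94 ± 0.37 (SE, adjusted p = 0.0133), and 1.48 with an adjusted p of 0.237 with the tumor number.

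The other genes among the 10 farthest above additivity were lowest in MEKi tumors and highest in Ctrl. Sema4f, a semaphorin of the nervous system, had the largest value of all with group means of 8.76 in Ctrl, 8.14 in CD40, 6.72 in MEKi and 8.58 in the combination (2.48 ± 0.36 (SE), adjusted p = 0.0025). Spon2, a secreted matrix protein gene, had means of 8.01, 7.48, 5.76 and 7.62 (2.38 ± 0.32 (SE), adjusted p = 0.00171). In both, the inhibitor difference was below -2 with control IgG (-2.04 and -2.24) and was 0.43 and 0.14 with the antibody. Their adjusted p was 0.107 and 0.0557 with the tumor number.

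Col11a1, a fibrillar collagen chain, had an interaction of 2.27 ± 0.53 (SE, adjusted p = 0.0326) and Aldoc, a glycolytic aldolase of brain, one of 2.01 ± 0.48 (SE, adjusted p = 0.0353). Both lay near the threshold: Col11a1 kept its call in 5 of the 15 fits that left out 1 array (1.90 to 2.80) and Aldoc in 3 of 15 (1.50 to 2.60). The covariate fit gave 1.52 and 1.53 (adjusted p = 0.388 and 0.355). The 3 MEKi arrays of Aldoc lay far apart, at 7.24, 9.45 and 8.08.

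Of the 23 measured neural-type genes, 5 lay above additivity and 1 below, beside 2.00% and 2.56% of all genes, and none was called with the tumor number. Uchl1, a ubiquitin hydrolase abundant in neurons, read 8.60, 8.17, 8.05 and 7.70 in Ctrl, 8.44, 7.48, 7.42 and 7.16 in CD40, 5.29, 4.84 and 4.95 in MEKi, and 6.83, 6.65, 6.52 and 6.71 in the combination. The 4 combination arrays lay between the MEKi arrays and all others. Its interaction was 2.16 ± 0.34 (SE, adjusted p = 0.00438), and 1.37 with the tumor number (adjusted p = 0.152).

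Tubb3, the neuronal beta-tubulin, read 7.61, 7.54, 7.35 and 7.33 in Ctrl, 7.77, 7.79, 7.59 and 7.86 in CD40, 6.06, 5.54 and 6.29 in MEKi, and 7.89, 7.81, 7.56 and 7.54 in the combination. Here the MEKi arrays alone were low, and the interaction was 1.44 ± 0.20 (SE, adjusted p = 0.00214, and 0.0729 with the tumor number). Klhl1 had a value of 1.63, Acsbg1, an acyl-CoA synthetase gene, one of 2.00 and Kcnab1, a potassium channel subunit, one of 1.07. Acsbg1 kept its call in 7 and Kcnab1 in 6 of the 15 fits that left out 1 array (1.46 to 2.46 and 0.90 to 1.23). The list's median was 0.09, and -0.06 with the tumor number, beside a median of -0.001 over all genes. Cdh2, the N-cadherin of mesenchymal cells, had means of 9.70 in Ctrl, 9.45 in CD40, 7.91 in MEKi and 8.95 in the combination (interaction 1.29 ± 0.17 (SE), adjusted p = 0.00128, and 0.0635 with the tumor number).

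**Figure D2:**
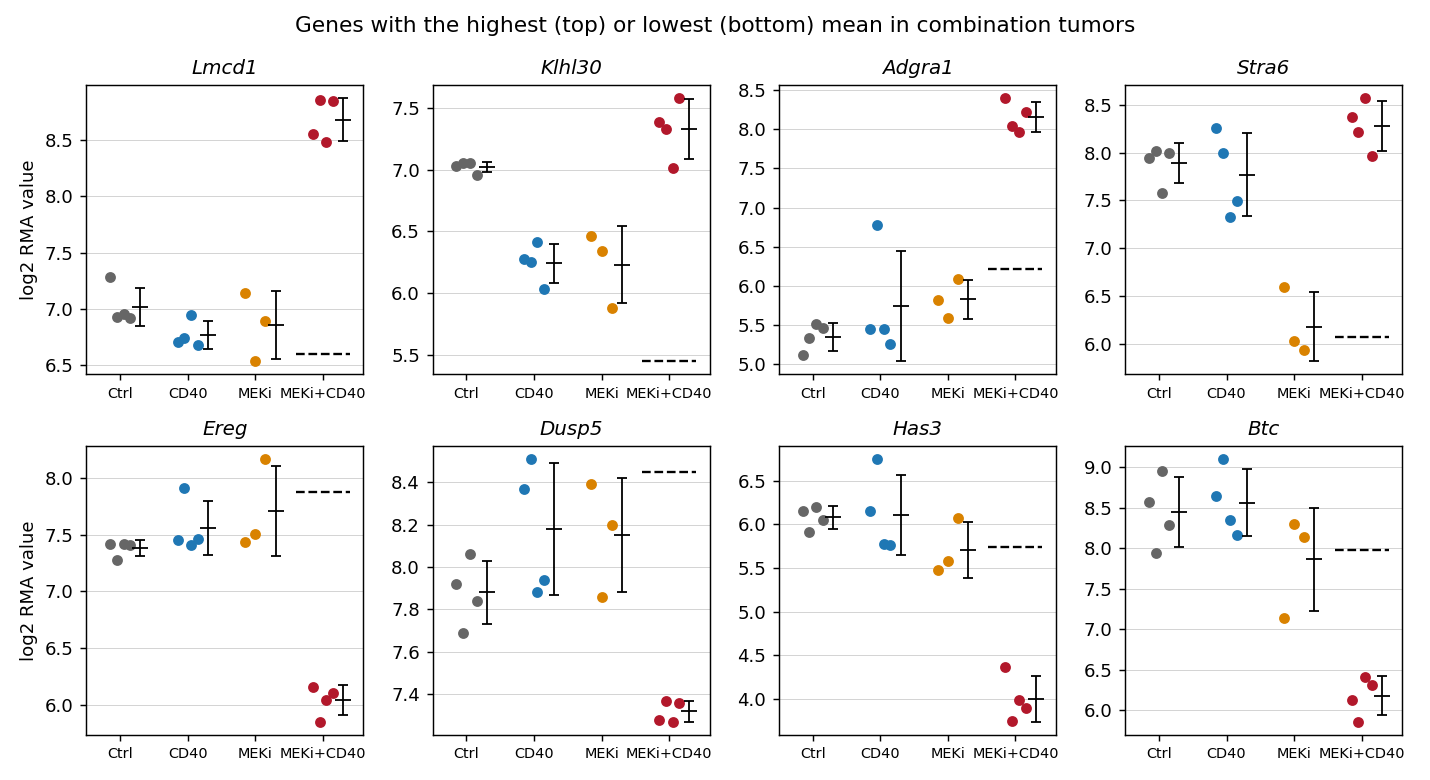
Log2 RMA values of 8 genes in the 15 arrays (points) with the mean and SD of each group (bars) and the additive level for the combination (dashed). In the upper row the combination mean is highest, as for Lmcd1 at 8.68 against an additive 6.60, and in the lower row it is lowest, as for Ereg at 6.04 against 7.88.

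Of 30 measured members of the ERK output list, 4 were called below additivity, 1 above and 25 did not pass, beside 2.56% and 2.00% of all genes. The list's median was -0.26 with 11 values positive, and 2 members, Ereg and Dusp5, were called with the tumor number (median -0.43). Of the 19 genes for components of the pathway from RAS to ERK none was called (median 0.05), with Map2k1 at 0.34 (95% interval -0.12 to 0.80) and Map2k2 at -0.18 (-0.36 to 0.00). The mean level of the output list was 8.35 ± 0.04 (SD, n = 4) in Ctrl, 8.33 ± 0.14 (SD, n = 4) in CD40, 8.24 ± 0.12 (SD, n = 3) in MEKi and 7.98 ± 0.01 (SD, n = 4) in combination tumors.

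Ereg, the EGFR ligand epiregulin, read 7.42, 7.28, 7.42 and 7.41 in Ctrl, 7.45, 7.91, 7.41 and 7.46 in CD40, 7.44, 7.51 and 8.17 in MEKi, and 6.16, 5.85, 6.04 and 6.10 in the combination. The combination alone was low, and no array of another group reached it. The inhibitor difference was 0.32 with control IgG and -1.52 with the antibody, and the interaction was -1.84 ± 0.21 (SE, 95% interval -2.30 to -1.38, adjusted p = 0.000855, and 0.0201 with the tumor number).

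Dusp5, the nuclear phosphatase that ERK induces against itself, read 7.92, 7.69, 8.06 and 7.84 in Ctrl, 8.37, 8.51, 7.88 and 7.94 in CD40, 8.39, 7.86 and 8.20 in MEKi, and 7.28, 7.37, 7.27 and 7.36 in the combination. Again every combination array lay below every other array. Its interaction was -1.13 ± 0.21 (SE, adjusted p = 0.0104, and 0.0278 with the tumor number).

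Plaur, the urokinase receptor, had means of 9.69, 9.66, 10.28 and 9.42 and an interaction of -0.83 ± 0.14 (SE, adjusted p = 0.00672, and 0.0728 with the tumor number). The feedback inhibitor Spry4 had means of 5.20, 5.31, 5.64 and 4.87 and an interaction of -0.88 ± 0.22 (SE, adjusted p = 0.0429), which passed in only 2 of the 15 fits that left out 1 array (-1.06 to -0.67). Dusp6, another ERK phosphatase, did not pass at -0.46 (95% interval -0.80 to -0.12, adjusted p = 0.135), nor did the ERK-driven factor Etv4 at 0.01 (-0.26 to 0.28). Bmf, a pro-apoptotic BH3-only gene that ERK represses, was the member above additivity at 1.14 ± 0.25 (SE, adjusted p = 0.0251), and kept that call in 12 of the 15 fits (0.93 to 1.28).

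Only 11 of the 466 genes below additivity had their lowest mean in the combination without being highest in MEKi. They included a second EGFR ligand, Btc (betacellulin), at 8.57, 7.94, 8.95 and 8.29 in Ctrl, 8.64, 9.10, 8.34 and 8.16 in CD40, 7.14, 8.30 and 8.14 in MEKi, and 6.13, 5.86, 6.41 and 6.31 in the combination. The combination arrays were the lowest, with 1 MEKi array lying nearest to them. The interaction was -1.81 ± 0.39 (SE, adjusted p = 0.0242), and it missed the threshold without the second Ctrl, the third MEKi or the second combination array, over a range of -2.16 to -1.58. It was -2.35 with the tumor number (adjusted p = 0.0754).

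Has3, a hyaluronan synthase, had means of 6.08, 6.11, 5.71 and 4.00, with its combination arrays at 4.37, 3.75, 3.99 and 3.90 and no array of another group under 5.48. Its interaction was -1.74 ± 0.29 (SE, adjusted p = 0.00664, and 0.0326 with the tumor number). Nptx1, a neuronal pentraxin and the neural-type gene below additivity, had means of 8.25 in Ctrl, 7.43 in MEKi and 5.35 in the combination (-1.77 ± 0.35 (SE), adjusted p = 0.0148, and 0.163 with the tumor number). The other 8 were Dusp5, Ivl, Rcan2, Clca2, Lepr, Zdhhc21, Socs5 and Prps1, with values from -1.78 (Ivl) to -0.48 (Prps1). Of these, Dusp5 and Ivl kept their calls in all 15 fits that left out 1 array, Socs5 in 12, Clca2 in 5, Rcan2 and Lepr in 4, Prps1 in 3 and Zdhhc21 in 2. These 11 genes were picked by their order of groups after the values were seen. Over all genes, 25.5% had their lowest mean in the combination, and 8.13% had it there with their highest in MEKi tumors.

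Most genes below additivity were high in MEKi tumors and near the Ctrl level in the combination. The clearest by its test was Wif1, a secreted inhibitor of Wnt ligands, at 2.11, 2.27, 2.21 and 2.33 in Ctrl, 2.37, 2.27, 2.07 and 2.23 in CD40, 6.15, 5.20 and 5.54 in MEKi, and 2.33, 2.22, 2.16 and 2.08 in the combination. The 3 MEKi arrays stood apart and the other groups overlapped at the floor of the array. The interaction was -3.44 ± 0.22 (SE, adjusted p = 6.91e-06), and -3.49 with the tumor number (adjusted p = 0.00104).

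The Wif1 promoter is shown because its gene had the smallest p of all genes. Among 9 promoters matched for the 10 lowest genes it alone held an E-box, CACGTG, which 7.24% of all promoters hold, and it stands in capitals (RefSeq, GRCm38.p6, chr10:121033754-121034053, plus strand).
Wif1: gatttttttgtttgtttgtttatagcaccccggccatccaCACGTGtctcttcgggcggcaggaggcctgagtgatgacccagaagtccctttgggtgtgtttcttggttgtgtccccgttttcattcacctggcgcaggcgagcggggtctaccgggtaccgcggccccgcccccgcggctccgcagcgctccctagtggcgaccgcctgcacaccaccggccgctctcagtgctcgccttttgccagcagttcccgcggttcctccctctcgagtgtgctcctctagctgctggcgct
The gamma-activated site TTCNNNGAA was in 3 of these 9 promoters (Krtap19-2, Krtap19-9b and Krtap19-5) and in 8.47% of all, and in 1 of 9 on the side above additivity (Acsbg1). That promoter also held TTCNNTTTC, an interferon-stimulated element found in 8.57% of all. The NF-kB letters GGGANTTTC (1.15% of all) and the AP-1 letters TGAGTCA or its reverse TGACTCA (5.17%) were in none of the 18 windows. No match says only that these letters are not in these windows.

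Ntn1, the guidance cue netrin 1, read 4.69, 4.84, 4.94 and 4.96 in Ctrl, 5.55, 4.83, 5.29 and 5.27 in CD40, 7.65, 8.29 and 8.67 in MEKi, and 5.80, 5.46, 5.47 and 5.52 in the combination. The MEKi arrays were the highest and no array of another group reached 6, and the interaction was -3.02 ± 0.27 (SE, adjusted p = 8.75e-05, and 0.00826 with the tumor number). Megf6, a multiple EGF-domain gene, had -2.39, Med12l, a Mediator subunit gene, -1.90, Ptgfr, the prostaglandin F receptor, -2.49 and Hoxb9, a homeobox gene, -1.68, each with an adjusted p under 0.01 also with the tumor number. These 4 were chosen for that second value after it was seen.

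Of the 10 lowest genes, 7 belong to the keratin-associated protein cluster of chromosome 16, whose products fill the hair shaft, and Krt35 is a hair keratin. Of the 32 measured hair follicle genes, 19 were called below additivity and none above, beside 2.56% of all genes below, with a list median of -2.09. The median was -1.22 with the tumor number, and none of the 19 was then called. Krtap16-3, the lowest of all, read 2.16, 2.40, 2.42 and 5.40 in Ctrl, 2.31, 2.45, 2.34 and 2.23 in CD40, 7.63, 8.40 and 8.37 in MEKi, and 2.28, 2.34, 2.32 and 2.02 in the combination. The CD40 tumors numbered from 10000 up read 2.34 and 2.23, beside 2.31 and 2.45 in the other CD40 tumors. Their hair follicle list levels were 4.25 and 4.22, beside 4.28 and 4.18. In Ctrl, the only tumor numbered from 10000 up read 5.40 and stood between the MEKi arrays and the rest. The interaction was -5.13 ± 0.76 (SE, adjusted p = 0.00281), and -3.55 with an adjusted p of 0.113 with the tumor number.

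Krtap19-2 was less affected by that array, at 2.80, 2.61, 2.80 and 3.34 in Ctrl, 2.59, 2.82, 2.56 and 2.62 in CD40, 6.16, 7.10 and 6.81 in MEKi, and 2.68, 2.67, 2.64 and 2.88 in the combination. Only the MEKi arrays were above 3.34, and the interaction was -3.73 ± 0.26 (SE, adjusted p = 1.28e-05, and 0.00227 with the tumor number). Krtap19-9b also stayed called in that fit (adjusted p = 0.0491). The hair follicle list as a whole had a mean level of 6.83 ± 0.15 (SD, n = 3) in MEKi, 4.27 ± 0.33 (SD, n = 4) in the combination, 4.23 ± 0.04 (SD, n = 4) in CD40 and 4.67 ± 0.81 (SD, n = 4) in Ctrl tumors, with the fourth Ctrl array at 5.88.

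Among skin keratinocyte genes, 10 of 33 were below additivity and none above, with a median of -1.34 that became -0.60 with the tumor number, where none was called, and -0.82 without the third CD40 array. They included the basal keratins Krt5 at -3.0 and Krt15 at -1.95, the stress keratin Krt17 at -3.38 and the transcription factor Trp63 at -1.81, of which Krt5 and Trp63 kept their calls in 12 of the 15 fits that left out 1 array (-3.42 to -2.52 and -2.11 to -1.62). Lgals7, an epithelial galectin among the 10 lowest, had -4.09 ± 0.92 (SE, adjusted p = 0.0282) with CD40 arrays of 5.00, 5.25, 8.08 and 5.41, and kept its call in 9 of the 15 fits that left out 1 array (-4.50 to -3.37). A further fit took the mean levels of the skeletal muscle and skin keratinocyte lists as covariates. It called 751 of the 18193 genes in either direction. There the skin keratinocyte median was 0.20, with 2 members called above and 3 below additivity, but these genes make up that covariate. The hair follicle median was -1.86, with 6 members called below. In whole tumor RNA, fewer cells of a type and less RNA per cell cannot be told apart. The part of skin and hair tissue at the tumor in these values was not tested.

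Epithelial genes included 3 that were highest in the same tumors. Esrp1, an epithelial splicing factor, read 2.97, 3.10, 3.28 and 3.91 in Ctrl, 3.18, 3.11, 3.92 and 3.24 in CD40, 6.29, 5.87 and 5.75 in MEKi, and 3.37, 2.84, 3.04 and 2.82 in the combination. MEKi arrays alone were above 3.92, and the interaction was -3.0 ± 0.32 (SE, adjusted p = 0.000405, and 0.0201 with the tumor number). The transcription factor Ovol1 (-1.25, adjusted p = 0.0491 with the tumor number) and the membrane protease St14 (-1.44) were the other 2 called among 26 epithelial genes. The list's median was -0.19, and 2.56% of all genes lay below additivity.

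**Figure D3:**
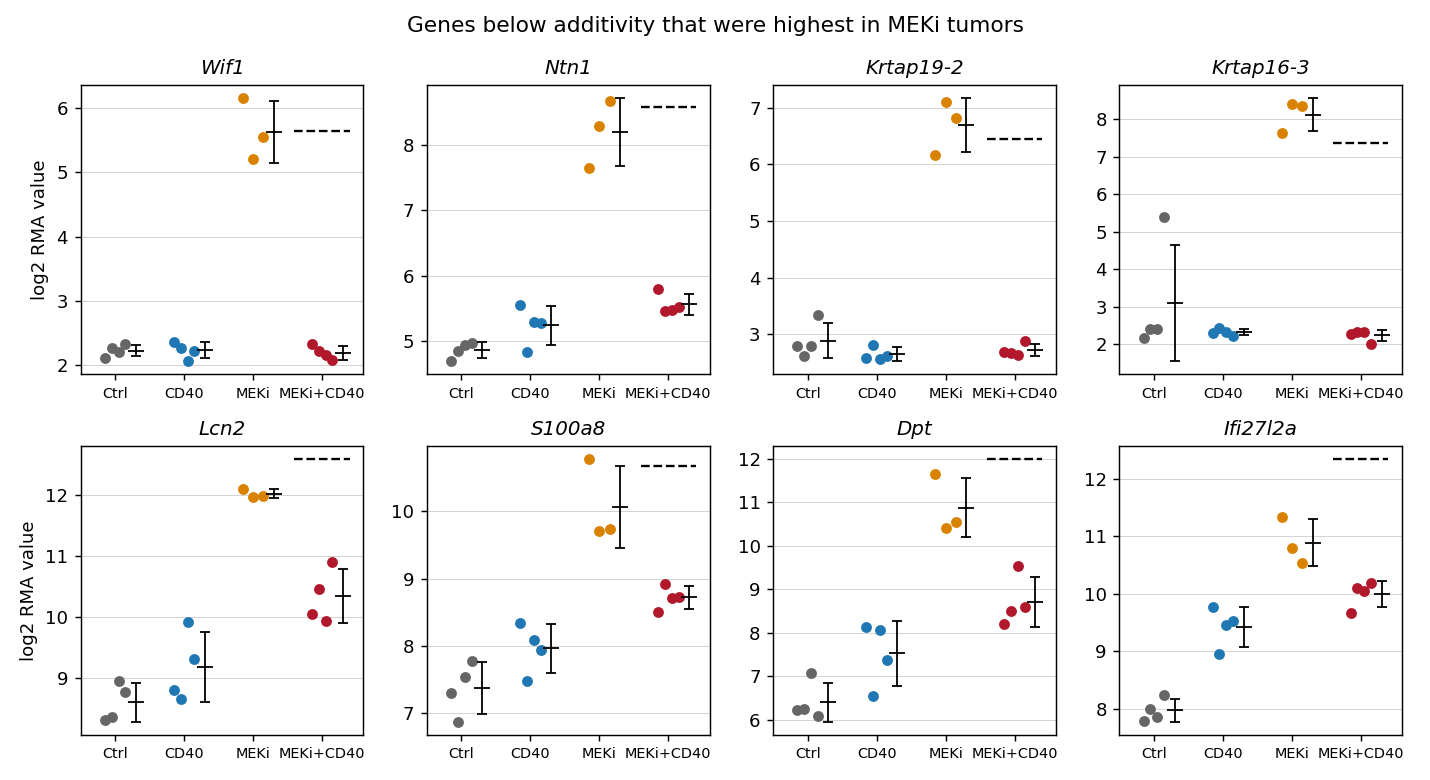
Log2 RMA values of 8 genes below additivity in the 15 arrays (points) with the mean and SD of each group (bars) and the additive level for the combination (dashed). MEKi arrays are highest in each panel, as for Wif1 between 5.20 and 6.15 against 2.33 or less in combination tumors.

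Granulocyte genes were the immune list with the most calls. Of 23 measured members, 6 lay below additivity and none above, with a list median of -0.72, beside 2.56% of all genes called below. Lcn2, the siderophore-binding lipocalin of neutrophils and stressed epithelium, read 8.31, 8.37, 8.96 and 8.78 in Ctrl, 8.81, 8.66, 9.92 and 9.31 in CD40, 12.10, 11.97 and 11.98 in MEKi, and 10.05, 10.46, 9.94 and 10.90 in the combination. The combination lay between MEKi and the other groups, above all Ctrl and CD40 arrays, and the interaction was -2.25 ± 0.38 (SE, adjusted p = 0.00646).

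S100a8, a subunit of calprotectin, read 7.29, 6.87, 7.53 and 7.78 in Ctrl, 8.34, 7.48, 8.09 and 7.93 in CD40, 10.78, 9.70 and 9.74 in MEKi, and 8.50, 8.92, 8.71 and 8.73 in the combination. The order of groups was that of Lcn2, with an interaction of -1.95 ± 0.36 (SE, adjusted p = 0.0108). Its partner S100a9 had -2.05, the neutrophil surface protein gene Cd177 -1.07, Stfa2l1, a stefin gene, -1.23 and the chemokine receptor Cxcr2 -0.89. Cxcr2 kept its call in 6 of the 15 fits (-1.08 to -0.72) and the other 5 in all of them. With the tumor number none of the 6 was called, and the list's median was -0.73. Lcn2, S100a8 and S100a9 are also made by keratinocytes, whose list was highest in MEKi tumors as given above. With the muscle and skin levels as covariates they were -1.61, -2.27 and -2.24 (limma adjusted p = 0.0457, 0.00392 and 0.00878). In that fit 7 of the 23 members were called below additivity, beside 751 of the 18193 genes in either direction. The part of keratinocytes in these values was not tested.

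Of 34 chemokines, 3 lay below additivity and 1 above, beside 2.56% and 2.00% of all genes, and 30 did not pass. Ccl20, a ligand of CCR6, read 6.57, 6.19, 6.16 and 6.82 in Ctrl, 5.72, 6.60, 7.22 and 7.37 in CD40, 10.27, 9.73 and 10.09 in MEKi, and 8.60, 8.28, 7.41 and 8.62 in the combination. Its interaction was -2.10 ± 0.49 (SE, adjusted p = 0.0324), and -1.01 with the tumor number (adjusted p = 0.466). Ccl7 had -1.40, the neutrophil attractant Cxcl1 -0.94 and the cytokine Il1b -1.40. These 4 calls were kept in 6 (-2.43 to -1.82), 6 (-1.64 to -1.03), 4 (-1.09 to -0.79) and 3 (-1.77 to -1.16) of the 15 fits that left out 1. Il1b was the 1 call among 32 genes of the CD40 and NF-kB pathway, whose median was -0.15, beside 4.56% of all genes called. Ccl6, a macrophage chemokine, was the 1 above additivity at 1.28 ± 0.30 (SE, adjusted p = 0.0324), and was lowest in MEKi (8.20) and highest in combination tumors (9.70), a call kept in 5 of 15 fits (1.04 to 1.50).

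Of 15 mast cell and eosinophil genes, 3 lay below additivity, the IgE receptor chains Fcer1a (-2.46) and Ms4a2 (-1.08) and the chymase Cma1 (-2.33), beside 2.56% of all genes. With the muscle and skin levels as covariates Fcer1a was -0.80 and Cma1 -0.67 (adjusted p = 0.16 and 0.34), and none of the 3 was called with the tumor number. Fcer1a read 3.13, 3.30, 3.34 and 3.27 in Ctrl, 3.18, 2.88, 4.50 and 2.67 in CD40, 4.58, 6.23 and 5.61 in MEKi, and 3.32, 2.74, 3.04 and 3.16 in the combination, and its call was lost without the third MEKi array (-2.90 to -2.06 over the 15 fits). Ms4a2 and Cma1 kept theirs in 7 of 15 fits each (-1.28 to -0.80 and -2.65 to -1.86). The only CD40 array that reached 4.50 was the one whose skin keratinocyte level was highest in its group, at 6.35. The part of skin tissue in these values was not tested.

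The type I interferon list had 1 call among 33 genes, beside 4.56% of all genes called. Ifi27l2a, an interferon-induced mitochondrial protein gene, read 7.78, 8.00, 7.86 and 8.23 in Ctrl, 9.76, 8.95, 9.46 and 9.52 in CD40, 11.34, 10.80 and 10.53 in MEKi, and 9.67, 10.10, 10.05 and 10.18 in the combination. The antibody difference was 1.46 ± 0.19 (SE, adjusted p = 0.0223) without the inhibitor and -0.89 ± 0.20 (SE, adjusted p = 0.0146) with it, so that the sign turned. The interaction was -2.35 ± 0.28 (SE, adjusted p = 0.000882, and 0.0491 with the tumor number). The other 32 members did not pass, and the list's median was -0.18.

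For T cells, cytotoxic effectors, regulatory T cells, checkpoints, both MHC lists, the interferon gamma response, dendritic cells, M2-like macrophages and Fc receptors, no member passed the test. These lists held 22, 18, 10, 13, 11 and 15, 23, 21, 22 and 20 measured genes. Over the 24 immune lists together 5 of 430 genes lay above and 16 below additivity, which is 4.88% against 4.56% of all genes. Their median antibody difference was 0.30 without and 0.17 with the inhibitor, and their median interaction -0.22. On simulated arrays, interactions of 1 log2 unit, placed at random over the 45037 probe sets, were recovered for 42 of 50 probe sets and of 0.5 for 11 of 50. Immune genes could vary more than most: the standard error was 0.42 for Cd8a, 0.46 for Ifng and 0.44 for Gzmb, beside a median of 0.13 over all genes. This recovery was therefore not shown for genes such as these.

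Cd8a, the coreceptor of cytotoxic T cells, had means of 5.42 ± 0.31 (SD, n = 4) in Ctrl, 6.03 ± 0.33 (SD, n = 4) in CD40, 6.19 ± 0.74 (SD, n = 3) in MEKi and 6.92 ± 0.46 (SD, n = 4) in combination tumors, and an interaction of 0.12 (95% interval -0.79 to 1.02, adjusted p = 0.931). Ifng, the T cell cytokine, had -0.50 (-1.50 to 0.49), Gzmb, the cytotoxic granule protease, -0.70 (-1.64 to 0.24) and Cxcl9, a T cell attractant, -0.67 (-1.59 to 0.24). All 4 intervals included 0, and the lower ends for Ifng, Gzmb and Cxcl9 lay below -1. The values with the tumor number were 0.64 for Cd8a, -0.03 for Ifng, 0.00 for Gzmb and 0.40 for Cxcl9, so that Cxcl9 changed sign, and on the linear scale the contrast of Ifng was positive (1.8).

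The interferon gamma response list had the lowest median among the immune lists without a call, -0.67 with 21 of 23 members negative, and -0.11 with the tumor number. Cxcl10 had -1.13 (95% interval -2.13 to -0.13, adjusted p = 0.224), Tap1, the peptide transporter, -0.90 (-1.78 to -0.02, adjusted p = 0.272) and Ciita, the master regulator of MHC class II, -0.60 (-1.25 to 0.05). The list's mean level was 9.11 ± 0.26 (SD, n = 4) in Ctrl, 10.02 ± 0.29 (SD, n = 4) in CD40, 10.05 ± 0.22 (SD, n = 3) in MEKi and 10.34 ± 0.27 (SD, n = 4) in combination tumors. Cd40 itself had -0.52 (-1.13 to 0.08, adjusted p = 0.367).

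A macrophage and a B cell gene lay above additivity. Cd68, a lysosomal macrophage protein, had means of 8.05, 8.31, 8.02 and 8.98 and an interaction of 0.70 ± 0.17 (SE, adjusted p = 0.0365), kept in 4 of 15 fits (0.59 to 0.85). It was the 1 call among 19 pan-macrophage genes (2.00% of all genes lay above), whose median was -0.23 with 6 values positive. With the muscle and skin levels as covariates Cd68 was 0.35 (adjusted p = 0.237). In that fit 3 of the 19 were called below additivity, with a median of -0.84, beside 751 of the 18193 genes in either direction. Blk, a B cell kinase, had means of 5.93, 5.85, 6.01 and 7.15 and an interaction of 1.22 ± 0.27 (SE, adjusted p = 0.0245, and 0.357 with the tumor number), kept in 9 of 15 fits (1.06 to 1.50). The other 14 B cell genes had a value below 0 and none passed, with the list's median at -0.65, or 0.05 without the first MEKi array. With the muscle and skin levels as covariates 11 of the 15 were called below additivity, with a median of -1.45, beside 751 of the 18193 genes in either direction. The first MEKi array was the highest of its group in the muscle list (8.39 against 6.35 and 6.38) and in the B cell list (6.40 against 4.40 and 4.47). How far these 11 calls rest on that array was not tested. Ighm, the IgM heavy chain, ranged from 7.43 to 10.82 in combination tumors and from 5.71 to 8.21 in MEKi tumors, and its interaction was 1.03 (-1.02 to 3.09). Arg1, of M2-like macrophages, had 1.18 (-0.03 to 2.40, adjusted p = 0.302) and Mrc1 -0.07 (-0.87 to 0.74).

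**Figure D4:**
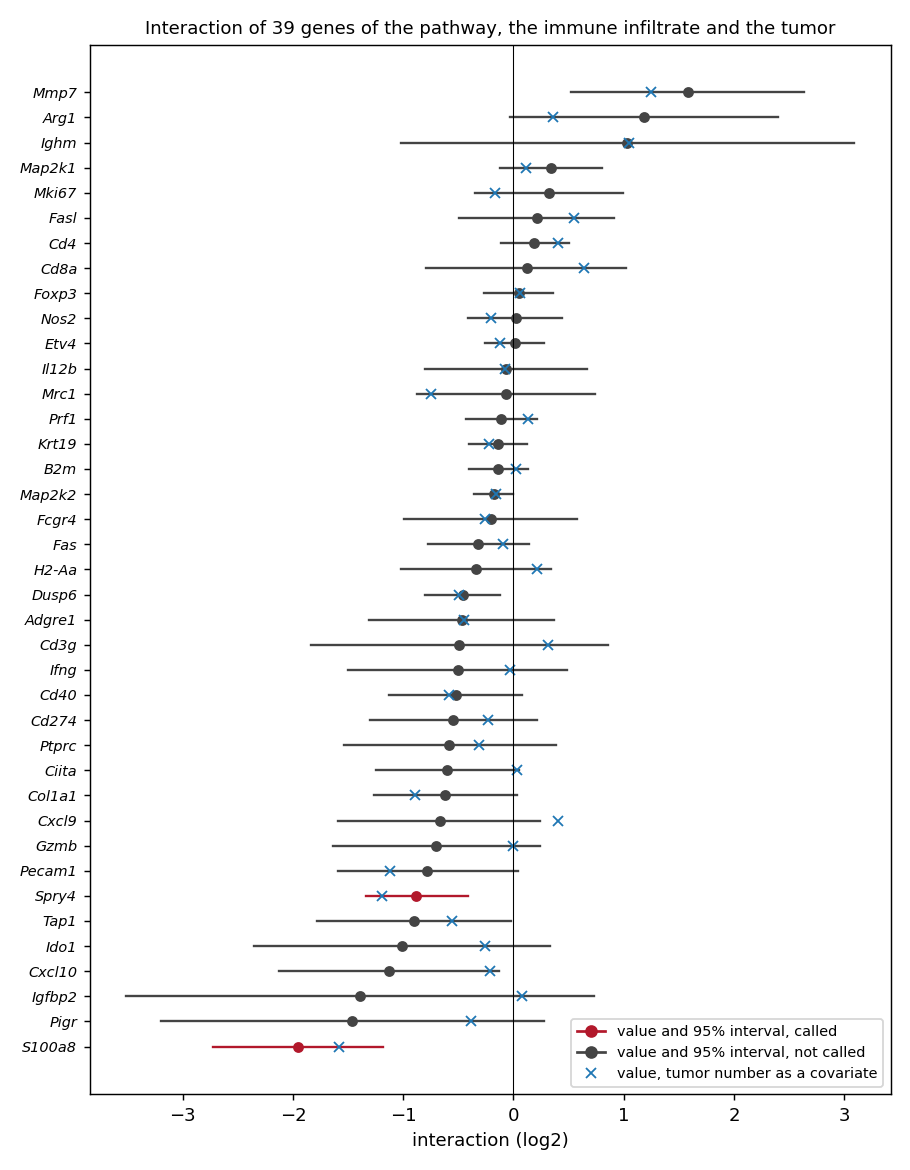
Interaction in log2 units (point) and its 95% interval (line) for 39 genes of the MEK pathway, the infiltrate and the tumor, with crosses for the value with the tumor number as a covariate. S100a8 at -1.95 and Spry4 at -0.88 are the called genes (red), and the intervals of Cd8a, Ifng and Gzmb span 0.

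Of 34 fibroblast and matrix genes, 3 lay below additivity and none above, beside 2.56% of all genes below, and none was called with the tumor number. Dpt (dermatopontin), which organises collagen fibrils, read 6.23, 6.25, 7.08 and 6.09 in Ctrl, 8.14, 6.55, 8.06 and 7.38 in CD40, 11.66, 10.42 and 10.56 in MEKi, and 8.21, 8.51, 9.54 and 8.59 in the combination. The combination lay between MEKi and CD40, and the interaction was -3.29 ± 0.56 (SE, adjusted p = 0.00681, and 0.119 with the tumor number). The proteoglycan Dcn had -2.12, kept in 8 of 15 fits (-2.49 to -1.89), and Fbln1, a fibulin, -1.77. Col1a1, the main fibrillar collagen chain, did not pass at -0.62 (95% interval -1.26 to 0.03).

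Of 17 genes of the insulin-like growth factor axis, 1 lay above and 1 below additivity, beside 2.00% and 2.56% of all genes, and 15 did not pass. Igfbp3, a binding protein, was above additivity at 1.09 ± 0.20 (SE, adjusted p = 0.0108), being lowest in MEKi (10.52) and between 11.38 and 11.54 in the other groups. Igfbp5, another, was below at -1.69 ± 0.25 (SE, adjusted p = 0.0029), being highest in MEKi (9.76) against 7.22 to 7.91. Their adjusted p was 0.198 and 0.0859 with the tumor number. The metalloproteinase list had 2 of 21 below, beside 2.56% of all genes. These were Mmp23 (-1.37) and Adamts4 (-0.77), kept in 4 (-1.60 to -0.96) and 5 (-0.86 to -0.62) of 15 fits. Mmp7, an epithelial matrilysin, did not pass at 1.58 (0.52 to 2.64, adjusted p = 0.105) although its 4 combination arrays, from 9.63 to 10.17, lay above all others. Of 19 mesenchymal genes, 3 lay below additivity, 1 above (Cdh2, given earlier) and 15 did not pass, beside 2.56% and 2.00% of all genes. The list's median was -0.52 with 7 values positive. Below were the transcription factors Prrx1 (-1.17, limma adjusted p = 0.000882, and 0.0201 with the tumor number) and Twist2 (-1.01) and the matrix protein Tgfbi (-0.91). Twist2 and Tgfbi kept their calls in 13 (-1.23 to -0.88) and 9 (-1.03 to -0.82) of 15 fits. Of 27 endothelial genes, 2 were above, Vwf (1.01) and Ptprb (1.07), beside 2.00% of all genes. These calls were kept in 12 (0.83 to 1.21) and 2 (0.87 to 1.39) of 15 fits. The endothelial list's median was -0.25, or -0.45 with the tumor number, and 5 of its 27 values were positive.

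Of 29 ribosome biogenesis genes, 7 lay below additivity and none above, beside 2.56% of all genes below, with 28 of 29 values negative and a median of -0.36. Polr1b, a subunit of RNA polymerase I, read 7.47, 7.50, 7.55 and 7.60 in Ctrl, 7.54, 7.61, 7.47 and 7.63 in CD40, 7.94, 7.95 and 8.08 in MEKi, and 7.34, 7.41, 7.41 and 7.46 in the combination. MEKi arrays were the highest and combination arrays the lowest, the nearest at 7.46 beside 7.47 in Ctrl and CD40, and the interaction was -0.62 ± 0.09 (SE, adjusted p = 0.00214, and 0.071 with the tumor number). Of the other 6, Rrp12 (-0.75) kept its call in all 15 fits, and Ddx21, Nop58, Dkc1, Nop16 and Tsr1 in 12, 8, 4, 3 and 3 of them, with values between -0.70 and -0.39.

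Hypoxia and glycolysis genes had the highest median of the 47 lists, 0.61 with 21 of 22 values positive, and mitosis genes followed at 0.55 with 29 of 31 positive, yet no member of either passed. The hypoxia and glycolysis median was 0.27 without the first MEKi array and 0.45 with the tumor number. With the muscle and skin levels as covariates 10 of the list's members were called above, beside 751 of the 18193 genes in either direction. The first MEKi array was lowest of its group in this list (9.18 against 10.67 and 10.23) and highest in the muscle list (8.39 against 6.35 and 6.38). How far these 10 calls rest on that array was not tested. The mitosis median was 0.03 with the tumor number and 0.10 without the first MEKi array, and the MEKi arrays varied most in this list's level (7.78 ± 0.74 (SD, n = 3), against 8.30 ± 0.37 (SD, n = 4) in the combination). Of 28 lysosome genes, 3 were above additivity, beside 2.00% of all genes. These were Asah1, the acid ceramidase, at 0.45, the ion channel gene Mcoln1 at 0.47 and Sqstm1, a selective autophagy receptor, at 0.51. Their calls were kept in 15, 9 and 4 of 15 fits (0.40 to 0.52, 0.41 to 0.54 and 0.40 to 0.57). Of 39 muscle genes, 2 were above (2.00% of all genes), Tnnt2 at 1.79 (0.89 with the tumor number, adjusted p = 0.23) and Tnnc1 at 0.89 (kept in 5 of 15 fits, 0.73 to 0.99), which are troponins of heart and slow muscle.

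**Figure D5:**
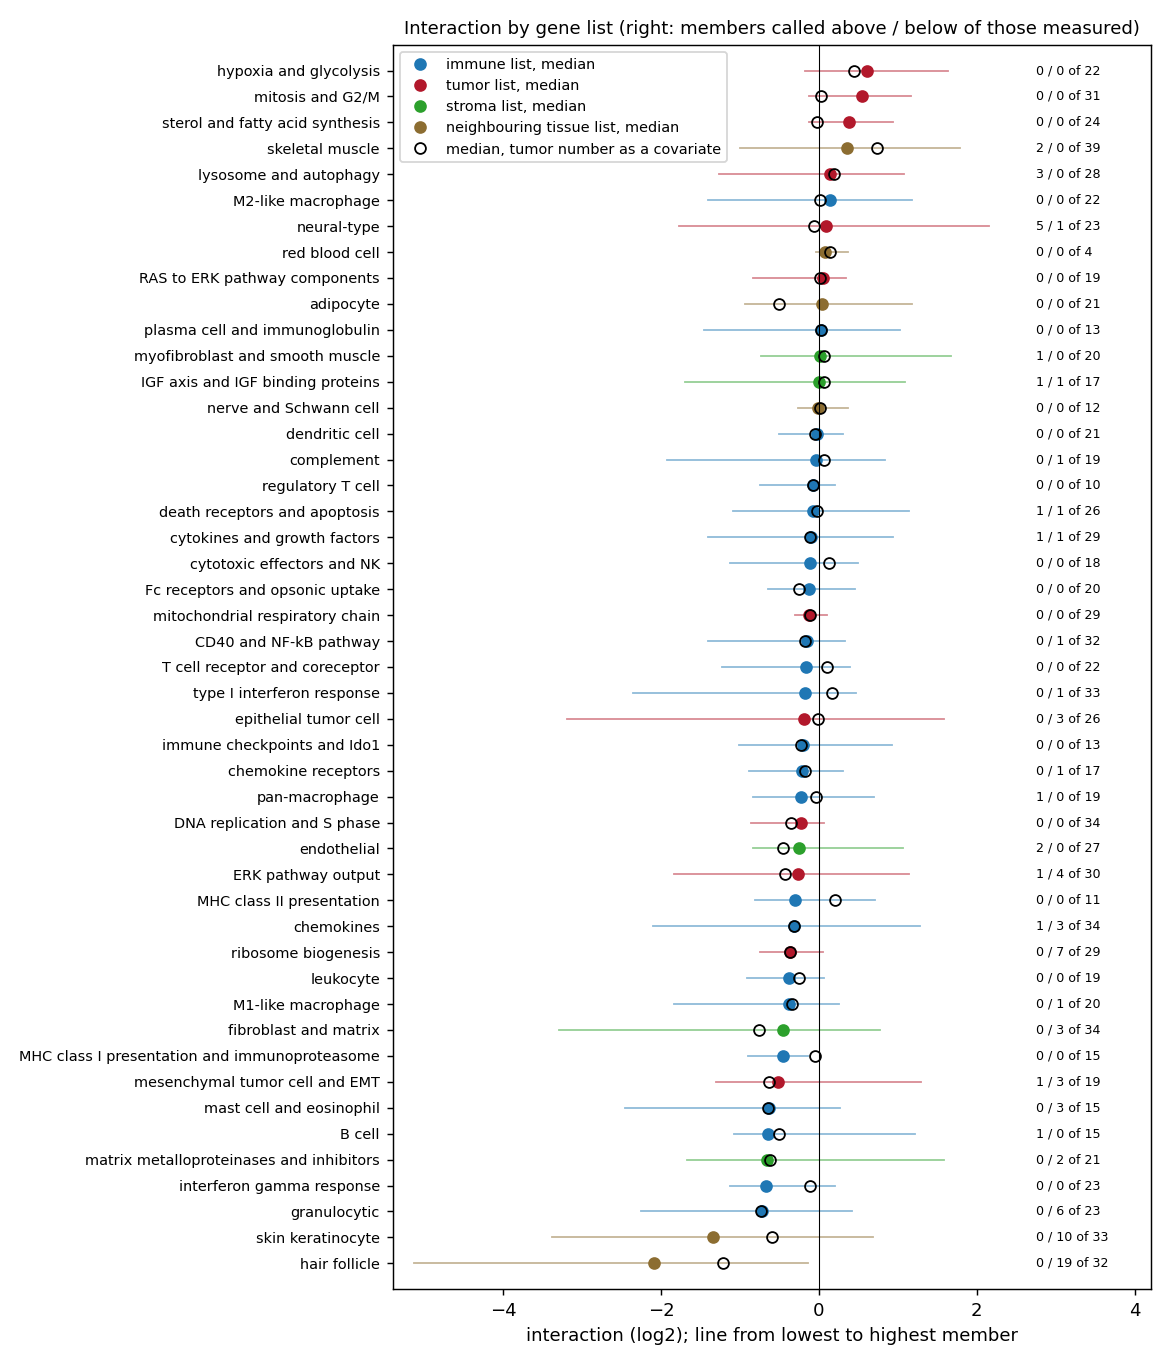
Median interaction in log2 units of the measured members of 47 gene lists (filled points), the range of the members (lines) and the median with the tumor number as a covariate (open circles), with the members called above and below additivity at the right. Hair follicle (-2.09) and skin keratinocyte (-1.34) lists lie lowest and hypoxia and glycolysis (0.61) highest.

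With the tumor number as a covariate, 51 of the 18193 genes were called (0.280%), of which 50 were among the 829. All 829 kept their sign, the median ratio of the new to the first value was 0.93, and the standard error over all genes grew to a median of 1.38 times. The 19 above and 31 below additivity that remained included, beside genes named above, Tead2, a partner of YAP (1.09, and 1.51 with the number), Ctxn1 (1.27 and 1.42) and Ypel1 (1.24 and 1.53) on the one side, and Slpi, a protease inhibitor of epithelia (-1.77 and -1.65), on the other. With the muscle and skin levels as covariates, 751 genes were called, 325 of them among the 829, and all 829 kept their sign.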

How the data were processed

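RNA of 15 whole tumors was measured on Affymetrix Mouse Genome 430 2.0 arrays, 1 array per tumor. The deposited values are log2 expression levels that the authors obtained by RMA, which subtracts background, quantile-normalizes the arrays and summarizes probes, so that levels of different probe sets cannot be compared. No further normalization was applied, and all 15 value columns were matched to samples by the labels (0 unmatched). Of 45101 probe sets, 64 controls were left out. A gene was read by the probe set with exactly 1 symbol and the highest mean (34945 probe sets, 18193 genes), while 932 probe sets with several symbols and 9160 with none were tested but not named.

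A group-means model of the 4 groups was fitted with lmFit and eBayes in limma 3.58.1 (R 4.3.3, residual df 11, prior df 3.44), with two-sided tests and Benjamini-Hochberg adjustment over 45037 probe sets at 0.05. All differences printed came from this fit, and their intervals are 95%. On simulated data 11, 42, 50 and 49 of 50 probe sets changed by 0.5, 1, 2 and 3 log2 units were recovered, with 12 false among 164 calls. The number of arrays limits the precision.

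Named genes were the 10 highest and 10 lowest called values, up to 3 called members with the smallest p of each of 47 gene lists (for a list without a call, the member with the smallest p) and 42 fixed genes, of which 3 have no probe set with 1 symbol. Further genes were named after their values were seen, among them all called list members not covered by that rule. Members, lists and tests were chosen with earlier results of these data known. The alternatives were another prior, array or group weights, quantile normalization, median centring, probe set filters, other gene summaries, thresholds, a replicate block, covariates, the linear scale (sign only) and leaving out each array. Promoters were taken from RefSeq (GRCm38.p6) for 18 of 20 genes. The labels tie each array to a tumor number and name 4 to 5 mice per group in 1 place and 3 to 4 in another.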

Additional observations from a re-analysis of the deposited data

Results flagged for a closer look

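In groups of 4 tumors, 447 sets of values (the named genes and the 47 lists) were screened for an array far from the rest of its group, and 35 were found, where chance flags about 1 in 20 groups. In Ctrl, the fourth array stood apart in hair genes, with the hair follicle list at 5.88 against 4.32 for the next array, Krt35 at 5.56, Krtap16-3 at 5.40 and Krtap19-5 at 4.64. Ctrl also had single arrays apart for Dpt at 7.08, Ereg at 7.28, Igfbp3 at 11.31, Lmcd1 at 7.28 and the list of RAS to ERK components at 8.74.

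In CD40, the third array stood apart in the skin keratinocyte list at 6.35 against 5.09, in Lgals7 at 8.08 and in Esrp1 at 3.92. The second CD40 array was high for Adgra1 at 6.78, Ereg at 7.91 and Mmp7 at 8.12. Single CD40 arrays were also apart for Dusp6 at 10.97, Ifng at 5.65, Krt19 at 13.21, the CD40 and NF-kB list at 6.83 and the complement list at 7.89.

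In the combination, the second array was highest in the T cell list at 6.38 against 5.75. Single arrays were apart for the cytotoxic list at 6.99, Cd8a at 7.60, Cd68 at 9.30 and Il1b at 8.60. The same held for the hair follicle list at 4.76, Lgals7 at 6.31, Krtap19-2 at 2.88, Krtap19-5 at 3.08 and Ms4a2 at 3.44. It also held for the epithelial list at 8.47, the metalloproteinase list at 8.02, Ddx21 at 8.32, Dusp6 at 10.18 and Rcan2 at 4.76. The sources of these arrays' values were not tested.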

How the results depend on the processing

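Of 45037 probe sets, 1441 were called, 676 above and 765 below additivity. With the tumor number as a covariate 84 were called (30 above, 54 below), with an adjusted p under 0.01 321 (134 and 187), and with an absolute value of at least 1 491 (150 and 341). Leaving out 1 array gave 745 (without the second Ctrl array) to 2072 (without the second MEKi array), with 339 (without the third MEKi array) to 1072 above and 404 to 1063 below. Of the 829 genes, 388 were called in all 15 of these fits and all 829 kept their sign. The other alternatives gave between 1098 and 1782 calls and reversed no called value. On the linear scale no called gene changed sign, while Ifng and Cd3g, which were not called, did (contrasts of 1.8 and 18.4 against log2 values of -0.50 and -0.49). The share above additivity, 46.9%, became 56.0% without dim probe sets and 35.0% with muscle and skin covariates (the latter with 465 above and 864 below). Equal replicate numbers do not pair these tumors: correlations of same-numbered arrays ran from -0.36 to 0.24, with 5 of 21 pairs over 0.1 and 4 of 15 arrays nearest to their own number. With the number as a replicate block 1171 probe sets were called (539 and 632), and 607 of the 829 genes.

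No tumor number series holds both MEKi and combination tumors, and no value within a series exists. With 3 or 4 arrays per group, departures of 0.5 log2 units were mostly not recovered on simulated data. Dim genes near the array's floor, such as Wif1 outside MEKi tumors, have compressed differences. Skin, hair and muscle at the tumor's edge were measured only through marker genes.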

Other observations

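Some single genes of other lists passed the test. Masp1, a protease of the lectin pathway, lay below additivity at -1.93 ± 0.38 (SE, limma adjusted p = 0.015) and kept its call in all 15 fits that left out 1 array. It was the 1 call among 19 complement genes, beside 4.56% of all genes called. Tnfrsf1a, the main TNF receptor, was below at -0.49 ± 0.11 (SE, adjusted p = 0.0239), kept in 14 of 15 fits (-0.54 to -0.44). Among 26 death receptor and apoptosis genes it was the 1 below, and Bmf the 1 above. Above additivity were Pdgfa, a growth factor for fibroblasts, at 0.94 ± 0.17 (SE, adjusted p = 0.0108) and Tpm1, a tropomyosin, at 0.68 ± 0.10 (SE, adjusted p = 0.00358), both kept in all 15 fits. Pdgfa was the 1 above among 29 cytokine and growth factor genes, with 1 below. Tpm1 was the 1 call among 20 myofibroblast and smooth muscle genes. With the tumor number the adjusted p of Masp1, Tnfrsf1a, Pdgfa and Tpm1 lay between 0.138 and 0.366.

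Sterol and fatty acid synthesis genes had a median of 0.38 with 22 of 24 values positive and no call, and a median of -0.02 with the tumor number. Genes of DNA replication (34 measured, median -0.23), the respiratory chain (29, median -0.13), adipocytes (21, median 0.04) and nerve and Schwann cells (12, median -0.01) held no call either.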
